A study of Saccharomyces cerevisiae with 2 samples.

Results

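The nuclear RNA polymerases of budding yeast are built from subunits encoded by 31 protein-coding genes, out of 6002 nuclear protein-coding open reading frames (ORFs) in the R64 annotation. They were chosen by name: RPA, RPB or RPC followed by a number, with RPO21, RPO26, RPO31 and RET1 added. Of these genes, 7 encode subunits found only in polymerase I, 7 only in polymerase II and 10 only in polymerase III. The other 7 encode shared subunits: RPC40 and RPC19 serve polymerases I and III, and RPB5, RPO26, RPB8, RPB10 and RPC10 serve all of the nuclear enzymes. The rule reads names and no expression value.

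The RNA came from a Saccharomyces cerevisiae strain in the BY4741 background, a laboratory strain, in which kanMX4 had taken the place of SET2, the histone H3 lysine methyltransferase that travels with polymerase II. Cells grew in YPAD with 1% glucose and were collected in mid-log phase at an optical density of 1. The 2 samples are separate biological replicates of this 1 group, and no wild-type sample was analysed here. Transcript isoform sequencing (TIF-Seq) reads the capped 5′ end and the polyadenylated 3′ end of each RNA molecule together, so that every molecule adds 1 to the count of its pair of ends whatever its length. The deposited counts of both samples stand in 1 pooled column, so no spread between cultures could be given and no test between groups was made. As a check of the genotype, 0 of 6074514 molecules overlapped the SET2 ORF, which allows a share of up to 4.94e-05%.

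Polymerase I transcribes the large ribosomal RNA precursor, polymerase II makes messenger RNAs, and polymerase III makes transfer RNAs and other short RNAs. Each enzyme has a pair of large catalytic subunits that form the active-site cleft, a smaller assembly platform beneath it, a set of subunits common to all of them, and a stalk of paired subunits that reaches towards the emerging RNA. Polymerases I and III also carry built-in relatives of the polymerase II initiation factors TFIIF and, in polymerase III, TFIIE. All of these genes, including those for polymerases I and III, are themselves transcribed by polymerase II.

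Molecules on the coding strand over the 31 ORFs numbered 45485 (0.765% of all sense molecules), in 4664 isoforms, that is, distinct pairs of ends. A molecule that covered the ORF from start codon to stop codon is called a whole-ORF molecule, and one that started more than 100 nt inside the ORF and ran to or past the stop codon is called an internal start. At least 50 sense molecules were found for 30 of the 31 genes, against 70.1% of all ORFs, and at least 1 whole-ORF molecule for 26 genes, against 72.7%. The gene under 50 was RPO31, with 45. The counts come from bulk cultures, in which fewer expressing cells and less RNA per cell cannot be told apart.

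The 7 shared subunits had the highest median, 1874 sense molecules per gene, with a range from 1323 to 12143. Polymerase II subunits had a median of 939 (115 to 2250), polymerase I subunits of 457 (59 to 7813) and polymerase III subunits of 175 (45 to 1375). All of these ranges overlapped. Inside the range of the shared subunits lay RPA34 (7813) and RPA14 (1494) of polymerase I, RPB3 (2250) and RPB11 (1833) of polymerase II, and RPC37 (1375) of polymerase III. Because long molecules are rare in these libraries (0.503% exceeded 2000 nt), levels were set against the median of all ORFs in the same window of ORF length. ORF length was taken from start to stop codon, introns included. The 4 windows were ORFs of at most 500 nt, those above this up to 1000 nt, those above this up to 2000 nt, and longer ones. Their medians were 100, 252, 102 and 88 sense molecules. On this scale the median gene stood at 18.7 times its window median among shared subunits, 4.45 times for polymerase I, 4.21 times for polymerase II and 1.43 times for polymerase III. These ratios also depend on the window, since the window medians do not fall steadily with length. In the shortest window the lower quartile was 1 molecule. Within it the median ratios were 18.5 for shared subunits, 10.1 for polymerase I, 11.3 for polymerase II and 3.17 for polymerase III. Above 500 and up to 1000 nt they were 27.1, 16.4, 4.65 and 1.58 in the same order. Above their window median were 25 of the 31 genes, against 49.8% of all ORFs. They included 7 of 7 shared, 7 of 7 polymerase II, 6 of 7 polymerase I and 5 of 10 polymerase III genes.

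**Figure D1:**
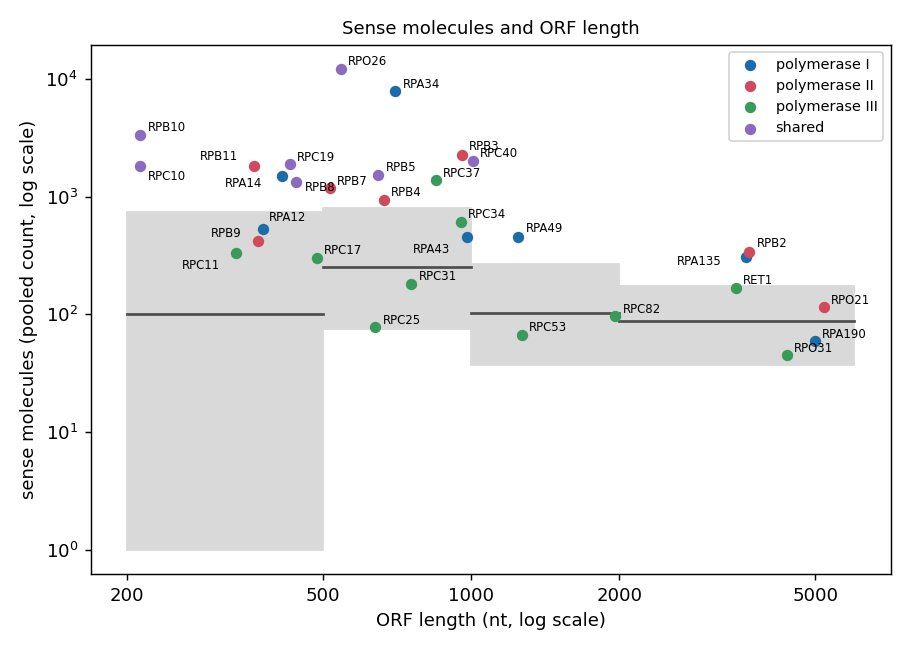
Sense molecules of each subunit gene (log scale) against ORF length in nt (log scale), coloured by polymerase; black lines are the median and grey bands the quartiles of all ORFs in 4 windows of length, drawn from 200 nt at the left. All 7 shared subunits have 1323 molecules or more, and RPO26 and RPA34 stand highest, with 12143 and 7813 molecules.

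Within windows of length, groups of 2 to 4 genes could be set side by side. Up to 500 nt, the 4 shared subunits had from 1323 to 3324 sense molecules, the polymerase II genes RPB11 and RPB9 had 1833 and 421, the polymerase I genes RPA14 and RPA12 had 1494 and 534, and the polymerase III genes RPC11 and RPC17 had 332 and 302. Above 500 and up to 1000 nt, polymerase III genes ranged from 78 to 1375 and polymerase II genes from 939 to 2250, so that RPC37 at 1375 lay inside the polymerase II range. The shared genes of this window were RPB5 at 1534, also inside the polymerase II range, and RPO26 at 12143. In this window RPA43 at 457 and RPA34 at 7813, both of polymerase I, spanned all of the polymerase II values.

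The catalytic subunits were seen almost only as pieces of their 3′ parts. RPA190 and RPA135 encode the large and second subunits of polymerase I, RPO21 and RPB2 those of polymerase II, and RPO31 and RET1 those of polymerase III. Their ORFs run from 3450 nt (RET1) to 5202 nt (RPO21). In R64, RPA190 (YOR341W) lies on the plus strand of chromosome XV at 960987 to 965981 and RPA135 (YPR010C) on the minus strand of XVI at 577585 to 581196. RPO21 (YDL140C) lies on the minus strand of IV at 205360 to 210561, and RPB2 (YOR151C), RPO31 (YOR116C) and RET1 (YOR207C) lie on the minus strand of XV from 612997, 539763 and 730008. Only the coding span is given, with UTRs read from the molecules. Sense molecules numbered 59 for RPA190 and 304 for RPA135, 115 for RPO21 and 337 for RPB2, and 45 for RPO31 and 168 for RET1. In each enzyme the second subunit had more molecules than the largest, which also has the longer ORF.

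Whole-ORF molecules were absent from 5 of these 6 genes. The exception was RPB2, with 4 molecules of 1 isoform, which had a 5′ UTR of 258 nt and a 3′ UTR of 346 nt and was 4279 nt long. A count of 0 allows up to 3 molecules. The internal-start share, that is, internal starts over internal starts plus whole-ORF molecules, was therefore 100% in 5 genes and 98.7% in RPB2 (95% Wilson interval 96.8% to 99.5%). Among all ORFs over 2000 nt the pooled share was 91.1%, and the median ORF stood at 100%. A share above 50% was found in 7 of 30 genes with at least 50 sense molecules, against 47.9% of such ORFs. They were RPA190, RPA135, RPO21, RPB2 and RET1, and with shorter ORFs RPC53 and RPC82.

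The internal starts of the catalytic genes lay near the 3′ end and were spread over many positions. In RPA135, 287 such molecules used 85 start sites, with a median distance of 498 nt to the stop codon and a median length of 664 nt. In RPB2 the 312 molecules lay at a median of 600 nt, and in RET1, 168 molecules used 55 sites at a median of 524 nt. The medians were farther from the stop codon in RPO21, with 115 molecules at 30 sites and a median of 842 nt, and in RPO31, with 40 molecules at 18 sites and a median of 833 nt. In RPA190, 55 molecules at 25 sites had a median of 385 nt. The most used site of RPO21, 847 nt before the stop codon, held 20 molecules, or 17.4%. The 3′ end of the RPO21 ORF encodes the repetitive C-terminal domain whose phosphorylation recruits factors, Set2 among them. Of the internal-start molecules, those starting in the last 1000 nt made up 69.6% in RPO21, 75% in RPO31, 86.4% in RPA135, 86.9% in RPB2, 89.1% in RPA190 and 94.0% in RET1.

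**Figure D2:**
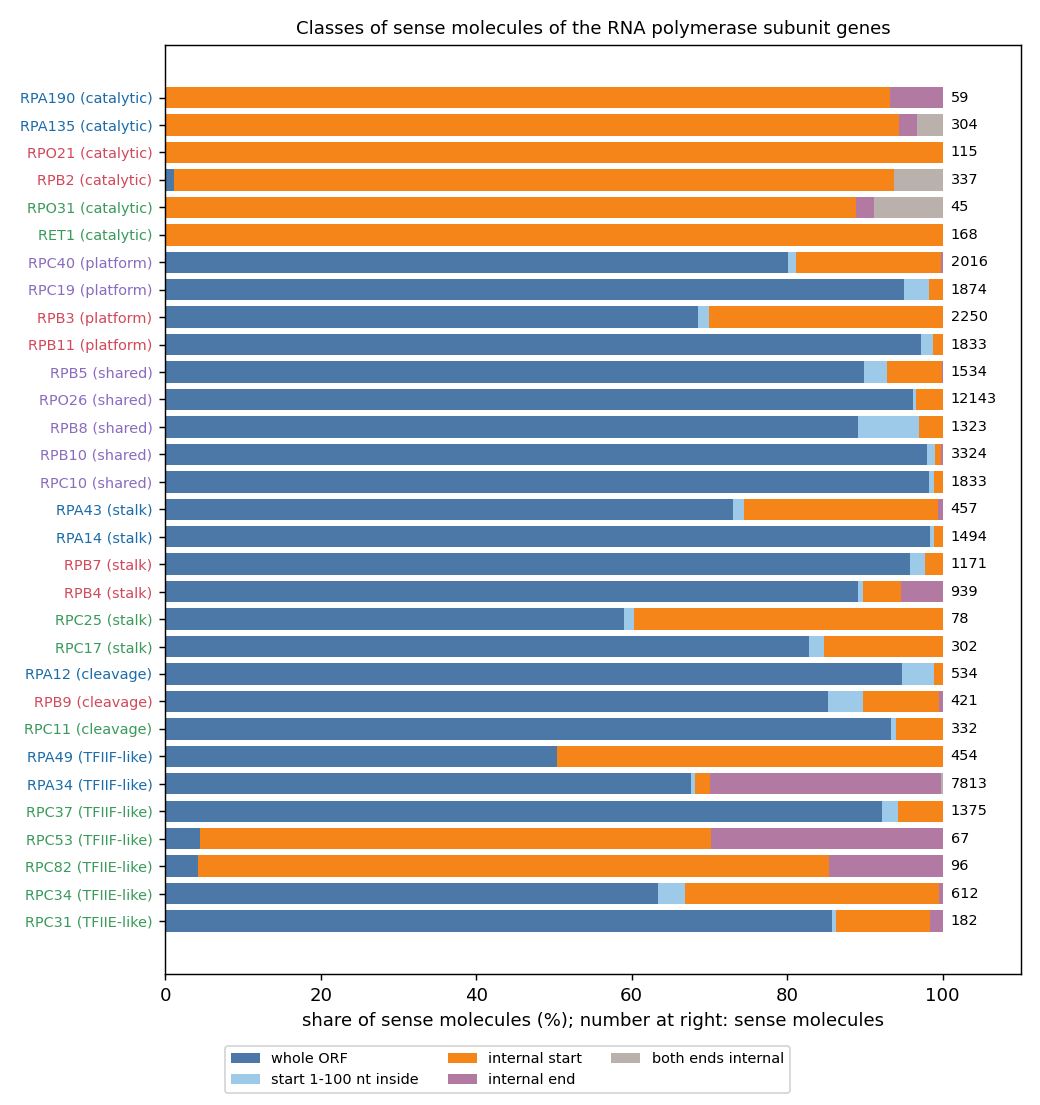
Share of sense molecules (%) in each class for the 31 genes, ordered by role and with names coloured by polymerase as in the plot of counts by length; the number at the right of each bar is the count of sense molecules. Whole-ORF molecules are 0% to 1.19% in the 6 catalytic genes, and RPA34 has 29.8% of its molecules ending inside the ORF.

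The assembly platform of polymerases I and III is the pair RPC40 and RPC19, and RPB3 and RPB11 are their counterparts in polymerase II. Their counts were close to one another, with 2016 sense molecules for RPC40, 1874 for RPC19, 2250 for RPB3 and 1833 for RPB11. All 4 lay between 1833 and 2250. RPC40 and RPC19 stood at 19.8 and 18.7 times their window medians, RPB11 at 18.3 times and RPB3 at 8.93 times. RPB3 and RPC40 have ORFs of similar length but lie on either side of a window border, with window medians of 252 and 102. The ratios of RPB3 and RPC40 therefore do not rank these genes against each other. Internal starts took 30.5% in RPB3 (interval 28.6% to 32.5%) and 18.9% in RPC40 (17.3% to 20.7%), the longer genes of the pairs at 957 and 1008 nt, and 1.87% in RPC19 and 1.22% in RPB11. The 677 internal starts of RPB3 were spread over 149 sites. The most used of these, 182 nt inside the ORF, held 56 molecules and lacked the initiator dinucleotide described below.

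Among the subunits common to all polymerases, RPO26 led all 31 genes. RPO26 encodes the subunit also called Rpb6 and is the only 1 of the 31 genes with an intron. RPO26 (YPR187W) spans 911257 to 911800 on the plus strand of chromosome XVI. It had 12143 sense molecules, 48.2 times its window median. That window was set by its length of 544 nt with the intron included, and the spliced length was not used. RPB10 had 3324, RPC10 (the subunit also called Rpb12) 1833, RPB5 1534 and RPB8 1323. In each of these 5 genes whole-ORF molecules made up most of the count, from 89.0% in RPB8 to 98.3% in RPC10. The 12143 molecules of RPO26 were not the product of 1 isoform. Its 11685 whole-ORF molecules fell into 415 isoforms with 38 starts and 103 ends, and the most counted isoform held 2799. RPO26 faces PZF1, the gene of the polymerase III initiation factor TFIIIA, across 234 nt. PZF1 had 84 sense molecules, and the most used starts of the pair were 214 nt apart.

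The stalk subunits differed widely between the enzymes. In polymerase I the partners RPA14 and RPA43 had 1494 and 457 sense molecules, in polymerase II RPB7 and RPB4 had 1171 and 939, and in polymerase III RPC17 and RPC25 had 302 and 78. RPC25 was at 0.310 times its window median, the lowest ratio of the 31 genes. By count, both stalk genes of polymerase III lay under all 4 stalk genes of the other enzymes. Against window medians, RPC17 at 3.02 times stood above RPA43 at 1.81 times. This order rests on the windows, because RPC17 was set against a median of 100 and RPA43 against 252. RPC17 stayed below RPB4 at 3.73, RPB7 at 4.65 and RPA14 at 14.9 times. RPC25 had 46 whole-ORF molecules and 31 internal starts, of which 11 began at a single site 344 nt inside the ORF that carries the initiator dinucleotide. Its internal-start share was 40.3% (30% to 51.4%), against a median of 16.2% for all ORFs of its length window.

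RPA12, RPB9 and RPC11 encode the small zinc-binding subunits that act in RNA cleavage and proofreading. They were among the less counted of the short genes, with 534, 421 and 332 sense molecules. All 3 were above the window median, at 5.34, 4.21 and 3.32 times. Whole-ORF molecules made up 94.8% in RPA12, 85.3% in RPB9 and 93.4% in RPC11.

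The TFIIF-like dimers held the most uneven counts. In polymerase I, RPA34 had 7813 sense molecules and its partner RPA49 had 454. In polymerase III, RPC37 had 1375 and its partner RPC53 had 67. In both pairs the shorter gene had the higher count, with ORFs of 702 nt for RPA34 and 849 nt for RPC37, and of 1248 nt for RPA49 and 1269 nt for RPC53. Against ORFs of their own window, RPA34 stood at 31.0 times the median, RPC37 at 5.46, RPA49 at 4.45 and RPC53 at 0.657. RPC53 had only 3 whole-ORF molecules, 44 internal starts and 20 molecules that ended inside the ORF.

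RPA34 (YJL148W), at 140437 to 141138 on the plus strand of chromosome X, also had ends inside its ORF. Of its 7813 sense molecules, 5283 covered the whole ORF and 2329 started at or before the start codon but ended before the stop codon, an internal-end share of 29.8% (28.8% to 30.8%). These 2329 made up 95.1% of the internal-end molecules of the 31 genes. Without RPA34 the share in the other 30 genes was 0.319%, or 120 of 37672 molecules. A share above 10% was found in 3 of 30 genes with at least 50 sense molecules, against 11% of all such ORFs. The other genes were RPC53 (29.9%, interval 20.2% to 41.7%) and RPC82 (14.6%, 8.89% to 23.0%), each resting on 20 molecules or fewer. By number of internal-end molecules RPA34 ranked 2 among the 6002 ORFs.

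The internal ends of RPA34 were concentrated. The most used lay 83 nt before the end of the stop codon with 1677 molecules, and the next lay 75 nt before it with 427, together 90.3% of the total. The sequences at both, from 14 nt before the end to 15 nt after it on the plus strand of chromosome X in R64, are shown because they carry the A-run at which these molecules stop. Capitals mark the 10 nt that follow the last base of the molecule.
RPA34 end 83 nt before, chrX:141041-141070: aagaggagtctagtgAAAAGAAGAAaaaga
RPA34 end 75 nt before, chrX:141049-141078: tctagtgaaaagaagAAAAAGAAGAaggag

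Each stretch of 10 nt holds 8 A. With 6 or more A taken as A-rich, 94.4% of the 2329 molecules ended at A-rich sequence (93.4% to 95.3%), against 68.5% of internal-end molecules over all ORFs and 18.6% of whole-ORF molecules of RPA34. Their starts were those of the whole transcript, since 61.3% used the most used start of RPA34, 57 nt before the start codon, as did 58.9% of whole-ORF molecules. A polyadenylated RNA that ends there lacks a stop codon. The part that cDNA priming on the A-run had in these ends was not tested. RPB4 had a smaller group of 50 internal ends, 5.32% of its molecules (4.06% to 6.95%), of which 62.0% were at A-rich sequence. The most used of them, 446 nt before the stop codon, held 14 molecules.

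**Figure D3:**
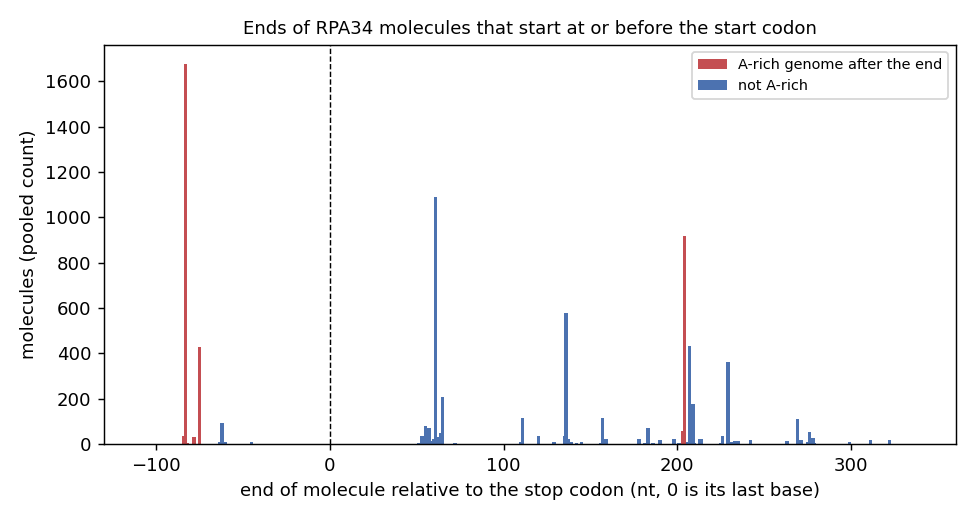
Number of molecules (pooled count) by position of their end, in nt from the last base of the RPA34 stop codon, for molecules that start at or before the start codon; red bars are ends followed by A-rich genome, and 36 molecules ending outside -120 to 350 nt are not drawn. The bar of 1677 molecules lies left of the stop codon and is higher than the highest bar past it, 1088 molecules at 61 nt.

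The TFIIE-like trimer of polymerase III helps to open promoter DNA. RPC34 had 612 sense molecules, RPC31 182 and RPC82 96, with ORFs of 954, 756 and 1965 nt. Only RPC34 was above its window median, at 2.43 times. RPC82, the longest, had 4 whole-ORF molecules and 78 internal starts, and 13 of its 14 internal ends were at 1 site. RPC34 had 388 whole-ORF molecules and 200 internal starts at 50 sites, a share of 34.0% (30.3% to 37.9%).

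The untranslated regions (UTRs) of whole-ORF molecules were compared between the enzymes next. Over genes, the median 5′ UTR was 38 nt for polymerase I (range 29 to 57, 5 genes), 80.5 nt for polymerase II (25 to 258, 6 genes), 32 nt for polymerase III (28 to 150, 8 genes) and 36 nt for shared subunits (14 to 91, 7 genes). It was 45 nt over all 4361 ORFs with a whole-ORF molecule. The ranges overlapped. The value for polymerase II included RPB2, which rests on 4 molecules, and without genes under 20 whole-ORF molecules it was 62 nt. A median 5′ UTR over 90 nt was found in 5 of 26 genes, against 21.9% of all ORFs. They were RPB2 (258 nt), RPB7 (192 nt), RPC11 (150 nt), RPB4 (99 nt) and RPB5 (91 nt). Both polymerase II stalk genes are in this group, and the polymerase I and III stalk genes had medians from 28 to 50 nt.

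The median 3′ UTR was 145 nt for polymerase I (93 to 201), 149 nt for polymerase II (50 to 346), 113.5 nt for polymerase III (56 to 220) and 179 nt for shared subunits (81 to 296), against 118 nt over all ORFs. Taken at the most used end of each gene, it was 152 nt for polymerase I and 147 nt for polymerase II. For polymerase III it was then 114.5 nt and for shared subunits 121 nt, so the shared subunits were no longer highest. A median over 200 nt was found in 7 of 26 genes, against 16.3% of all ORFs. Beside RPB2 they were RPB10 (296 nt), RPC10 (266 nt), RPB9 (258 nt), RPC11 (220 nt), RPC40 (207 nt) and RPA49 (201 nt). RPB10 and RPC10 have ORFs of 213 nt, so that the 3′ UTR was longer than the coding part in both. The shortest 3′ UTRs were those of RPB4 (50 nt), RPB11 (51 nt) and RPC37 (56 nt). Whole-ORF molecules had a median length over genes of 920 nt for polymerase I, 843 nt for polymerase II, 946.5 nt for polymerase III and 646 nt for shared subunits. Lengths are spans on the genome, so the median of 656 nt for RPO26 includes its intron. A shorter spliced length of RPO26 could lower the value for shared subunits.

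Ends differed in sharpness as well. In RPC10, 81.1% of whole-ORF molecules ended at 1 position 266 nt past the stop codon, and in RPA14, 63.5% ended 93 nt past it. RPC40 was spread over 62 ends, the most used holding 11.8%. A-rich genome followed 99.2% of whole-ORF ends in RPB3 and 95.4% in RPB8. A share over 90% was found in these 2 of 26 genes, against 5.96% of all ORFs.

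**Figure D4:**
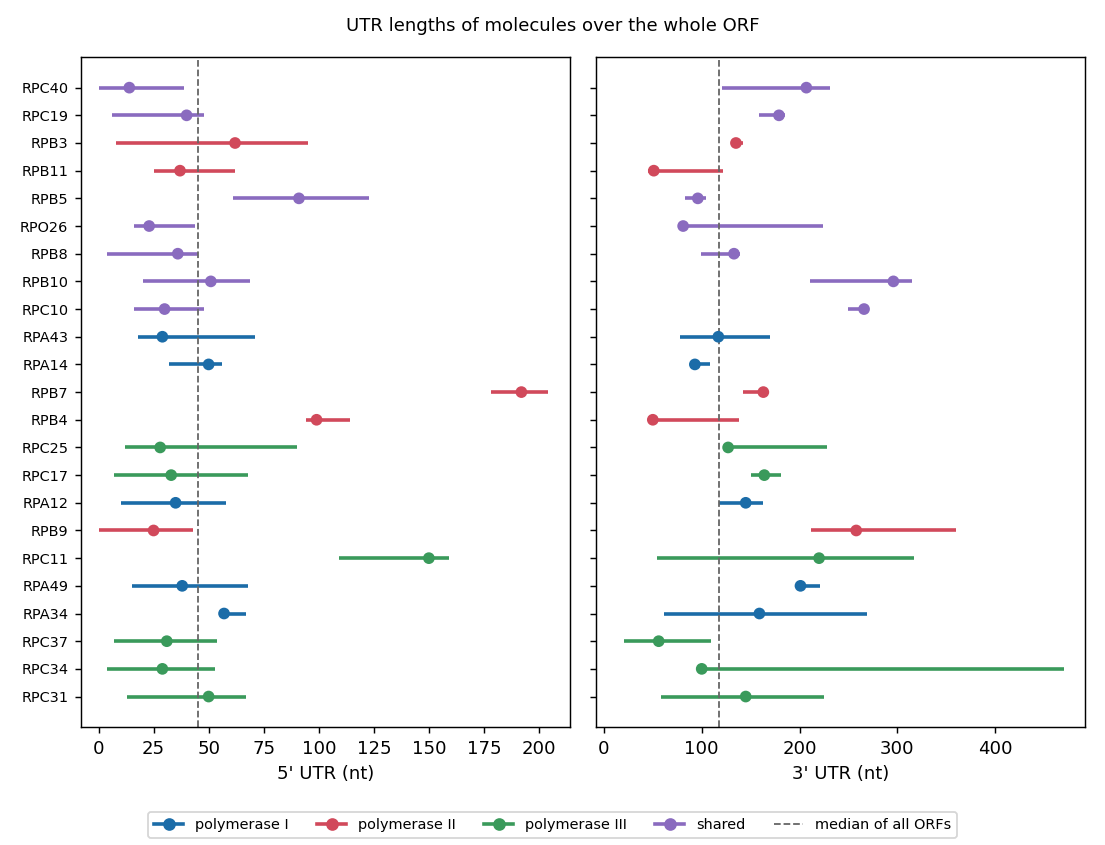
Length in nt of the 5′ UTR (left) and the 3′ UTR (right) of whole-ORF molecules for the 23 genes with at least 20 of them; points are medians over molecules, lines run from the 5th to the 95th percentile, and the dashed line is the median over all ORFs. RPB7, RPC11 and RPB4 have the longest 5′ UTRs, at 192, 150 and 99 nt, and RPB10 has the longest 3′ UTR, at 296 nt.

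The start sites used by whole-ORF molecules showed the yeast initiator dinucleotide, a purine as the first base of the molecule (+1) with a pyrimidine just before it. It stood at the most used start of 26 of 26 genes, against 92.3% of all ORFs. The most used start held between 14% (RPC17) and 60.3% (RPB7) of molecules in genes with at least 20. The sites below were chosen for the highest count (RPO26), the longest 5′ UTRs among genes with at least 20 whole-ORF molecules (RPB7, RPC11, RPB4) and the gene with the internal ends (RPA34). Each runs 5′ to 3′ on the strand of its gene in R64, from 20 nt before +1 to 9 nt after it, with the initiator dinucleotide in capitals.
RPO26, plus strand, chrXVI:911221-911250: caggtaacagtgtaaagatTAaggctacaa
RPB7, minus strand, chrIV:1277352-1277381: aaaatgccaataacgtagaCAagctcactt
RPC11, minus strand, chrIV:548456-548485: tattacatggcaagatgatCGatataaaat
RPB4, plus strand, chrX:150847-150876: aaaagtaaagaaagagactTGaatgggttg
RPA34, plus strand, chrX:140360-140389: tcggtatcatataggtctgTGatcgagtga

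These starts held 5005 molecules in RPO26, 676 in RPB7, 109 in RPC11, 341 in RPB4 and 3110 in RPA34. An ATG ahead of the start codon was present in over 50% of whole-ORF molecules in 2 of 26 genes, RPB4 and RPC11, against 16.2% of all ORFs. In RPB4, 815 of 837 molecules (97.4%) contained an ATG at 92 nt before the start codon. It is out of frame with the ORF and followed by a stop codon after 8 codons. The most used start of RPB4 lies 94 nt before the start codon, so this ATG is close to the 5′ end of many molecules. In RPC11, 303 of 310 molecules (97.7%) contained an ATG at 60 nt, in frame but followed by a stop codon after 3 codons. Translation from these ATGs was not tested. The long leader of RPB7 had no ATG in any of its 1121 whole-ORF molecules.

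The initiator was also counted at internal starts. It was present at 20.2% of 1033 distinct internal start sites of the 31 genes (17.9% to 22.8%), against 26.9% of all internal start sites and 54.5% of 674 whole-ORF start sites of the same genes. At internal sites with at least 10 molecules it was 14.1%, 11 of 78 (8.06% to 23.5%), against 31.7% over all ORFs. These intervals count sites as independent, and neighbouring sites of 1 gene are not.

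The promoters were searched for known elements. The PAC element takes its name from polymerases A and C, the older names of polymerases I and III, and often occurs with a second element called RRPE in genes for ribosome production. The PAC core GATGAG and the RRPE core AAATTTT were searched on both strands, from 250 nt before to 50 nt after the first base of the start codon, with a match in any position counted. The PAC core was found in 6 of 7 polymerase I genes, 8 of 10 polymerase III genes and 2 of 7 shared genes, and these shared genes were RPC40 and RPC19, the platform of polymerases I and III. It was found in 1 of 7 polymerase II genes, RPB2, where it lies inside the ORF. All promoters of this length held it in 20.4%.

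The element bears the name of polymerases I and III, so its presence in their genes is no independent finding. Pooled by enzyme, a grouping made after the counts were seen, the core was present in 16 of the 19 genes that serve polymerase I, III or both and not II, and in 1 of the 12 that serve II alone or all enzymes. The 3 without it were RPA12, RPC11 and RPC17, of which RPA12 and RPC11 encode cleavage subunits. With only the 250 nt before the start codon searched, the counts were 16 of 19 and 0 of 12, against 17% of all promoters. The longer form CGATGAG was present in 9 of 19 and 0 of 12, against 7.02%.

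The matches below show the element in catalytic, platform, stalk, TFIIF-like and TFIIE-like genes, 5′ to 3′ on the strand of the gene in R64, from 12 nt before the match to 11 nt after it, with the match in capitals. CTCATC is the core read from the opposite strand.
RPA190, plus strand, chrXV:960803-960831: tttatttcaaatCTCATCtcatctcttaa
RPA135, minus strand, chrXVI:581289-581317: gcatcttagagaCTCATCtcatctcttaa
RET1, minus strand, chrXV:733570-733598: ttgtaattgtgaGATGAGctgaaaatttt
RPC40, minus strand, chrXVI:746902-746930: aaaaattattgcGATGAGttgaaagaaaa
RPC19, plus strand, chrXIV:412632-412660: atattcacctgcGATGAGctggaaaaaaa
RPA43, minus strand, chrXV:960348-960376: tgaaaagattccGATGAGggtgtatgggt
RPA49, minus strand, chrXIV:182722-182750: attttttattgcGATGAGctgaaattttc
RPA34, plus strand, chrX:140315-140343: aaaaattttatcGATGAGcattgaatagc
RPC53, plus strand, chrIV:183086-183114: gagatgagctatGATGAGatgagcttcat
RPC82, minus strand, chrXVI:919147-919175: atttttcaaaagCTCATCgcattgaagga

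In RPA190, RPA135 and RPC53 a second match overlaps the one shown. RPA135 and RPC37 also have a match that spans the start codon, which is not counted in the distances. The nearest match ahead of the start codon began between 59 nt (RPA14) and 240 nt (RPC53) before it in the 16 genes, with a median of 116 nt. In the 12 of these with a whole-ORF molecule, it began from 9 nt (RPA14) to 187 nt (RPC53, whose start rests on 3 molecules) upstream of the most used start, with a median of 80 nt. In RPA34 the distance was 53 nt and in RPC40 it was 73 nt. Some matches lie between divergent genes and are nearer to the most used start of the neighbour. The RPC53 match shown, within chrIV:183086-183114, lies between the starts of SAS10 (183044) and RPC53 (183290). The RPC25 match, within chrXI:176659-176687, lies between those of RPC25 (176493) and LTV1 (176727). To which gene such a match belongs was not tested, and the counts above include them.

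The RRPE core was found in 6 of 7 polymerase I genes, 8 of 10 polymerase III genes, 6 of 7 shared genes and 2 of 7 polymerase II genes, against 23.2% of all promoters. Both cores together were found in 15 of 31 genes, against 7.75% of all promoters: 6 for polymerase I, 7 for polymerase III, RPC19 and RPC40. The site of the factor Reb1, CGGGTAA, was found in 4 of 31 genes (RPC19, RPB11, RPA14 and RPB9), against 7.08%, and TATAAA in 15 of 31, against 45.2%. A match describes these letters only, and binding was not measured. The genes with the PAC core ranged from 45 sense molecules in RPO31 to 7813 in RPA34, which spans nearly the whole range of the 31 genes.

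**Figure D5:**
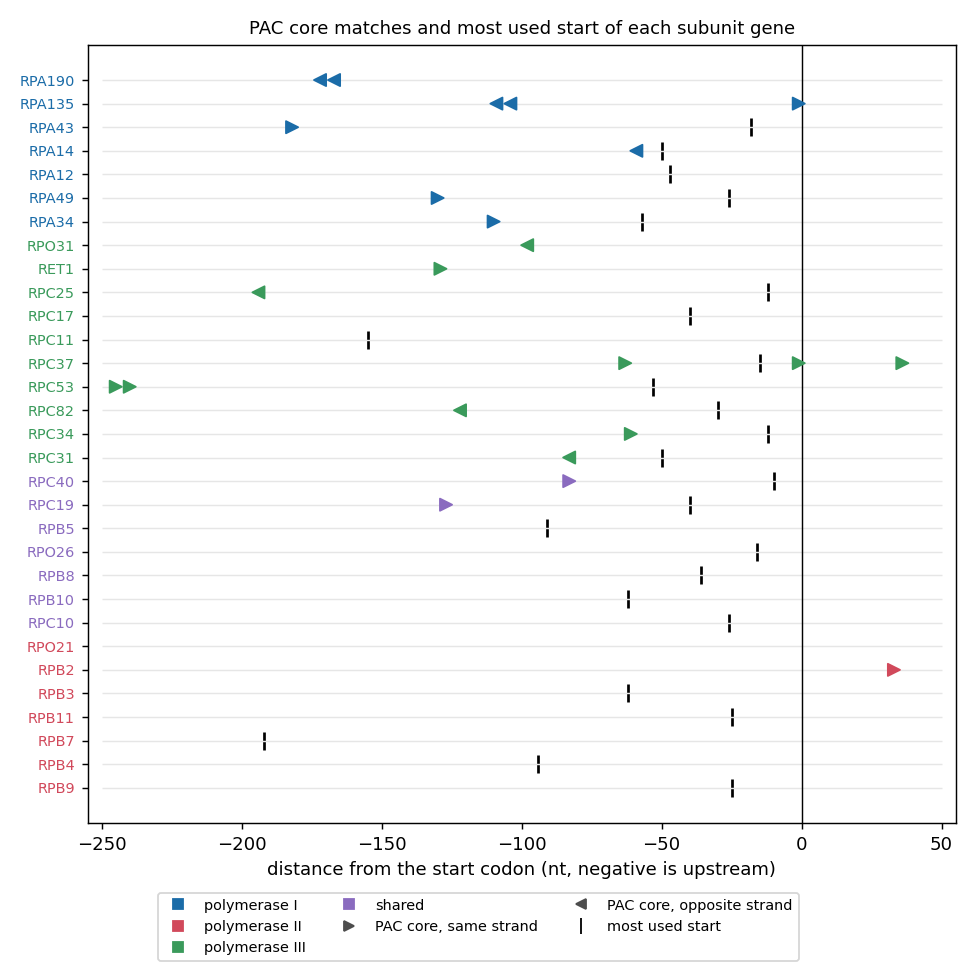
Position of each PAC core match (triangles, pointing right on the strand of the gene and left on the opposite strand) and of the most used whole-ORF start (black ticks) for the 31 genes, in nt from the start codon; the RPB2 start at 258 nt lies outside the window and 5 genes have no whole-ORF start. Matches upstream of the start codon are in 16 genes, all of polymerase I, III or, for RPC40 and RPC19, both.

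A divergent upstream neighbour was present for 21 of 31 genes, against 52% of all ORFs. RPA43 and RPA190, a pair within polymerase I, face each other across 804 nt. RPA43 had 457 sense molecules, whereas RPA190 had 59 with an ORF of 4995 nt, and RPA190 had no whole-ORF molecule from which a start could be read. RPA14 lies 524 nt from CPR1, which had 17921 sense molecules, and RPA14 had 1494.

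Molecules on the opposite strand overlapped 18 of the 31 coding spans, against 75% of all ORFs. Most belonged to a convergent neighbour whose 3′ end reaches into the subunit gene. All 574 sense molecules of GCN3 and all 251 of YUR1 extended into RPC37 and RPB4, with median overlaps of 60 and 46 nt. Of BPL1, 111 of 118 molecules reached into RPO21 by a median of 21 nt. The corresponding numbers were 232 of 337 for SKI3 into RPC82, 74 of 136 for RIB7 into RPB5 and 43 of 99 for DSC3 into RPB8.

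Antisense molecules proper, which overlap no ORF on their own strand, were few. At least 1 was counted for 10 of 31 genes, against 62.3% of all ORFs. Up to 500 nt this held for 4 of 10 genes, against 386 of 893 ORFs. In the longer windows it was 3 of 11 against 868 of 1517, 1 of 4 against 1493 of 2266 and 2 of 6 against 992 of 1326. Antisense molecules numbered 90 in all, 0.197% of sense plus antisense molecules (0.161% to 0.243%), against 1.03% over all ORFs. This share depends on ORF length and, through its denominator, on the number of sense molecules. Up to 500 nt it was 0.435% in the subunit genes, against 0.439% over all ORFs of that window. In the longer windows it was 0.0595% against 0.420%, 0.341% against 2.06% and, over 2000 nt, 0.580% against 8.57%. RPB11 had 41 of the 90 antisense molecules and RPC19 had 14, the latter covering the whole ORF of 429 nt at their median. The median gene of each polymerase group had 0 antisense molecules. A further 66 lay over the end of RPA14 but were counted for YDR157W, with which they overlapped more.

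Factors that work with the polymerases were counted for comparison, on lists chosen from textbook knowledge but with earlier results of these data known. Above the window median were 4 of 8 polymerase I factors (45 to 399 sense molecules) and 4 of 9 polymerase III factors (42 to 248). So were 9 of 9 polymerase II general and elongation factors (153 to 3435) and 4 of 7 assembly and import factors (87 to 1568). The median ratio to the window median was 0.841 for the polymerase I factors and 0.920 for the polymerase III factors, against 4.45 and 1.43 for the subunits of these enzymes. For the polymerase II factors it was 1.76, against 4.21. RRN3, which brings polymerase I to its promoter, had 399 sense molecules. BRF1 and BDP1 of TFIIIB had 248 and 92, and MAF1, the repressor of polymerase III, had 104. SPT4, which encodes a small elongation factor, had 3435, and NPA3, a GTPase needed for assembly and nuclear import of polymerase II, had 1568. SPT15, the gene of the TATA-binding protein used by all of the nuclear polymerases, had 1950 sense molecules, 7.74 times its window median, which lies within the range of the shared subunits.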

How the data were processed

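Per the labels' protocols, capped and polyadenylated RNA of 2 samples was read from both ends. The submitters' processing notes name CASAVA, Novoalign 2.07.10 and the build R64. The authors deposited 1 whole-number count per pair of start and end positions, with both samples in 1 column. Filters, removal of duplicates and the way of pooling are not given in the sources used here. The genome positions lay within the R64 chromosomes on all 16, with 0 exceptions. Counts were used unscaled. The table held 510263 isoforms. Each was assigned to the ORF it covered or overlapped most (at least 1 nt), in Python 3.11.15 with numpy 2.4.6, pandas 2.3.3 and scipy 1.17.1. The assignment was tested on simulated isoforms. No molecular identifiers are mentioned, so Wilson intervals (95%), and the upper limit of 3 molecules where none was counted, cover counting error only. Value columns of no sample numbered 0. Sequences were read from the RefSeq R64 genome. Of 6002 promoters, 1 ran off a chromosome end. Every member was named by its role, and other ORFs only where their molecules overlapped a member or they shared its promoter. The cofactors named from the lists of factors fall outside this rule and were picked with their values seen. The members, lists and motifs were chosen with earlier results of these data known. Alternatives covered isoform weight, distance, overlap, gene length, the leading gene and motif letters.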

Additional observations from a re-analysis of the deposited data

How the results depend on the processing

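Each of 33 values was recomputed, giving 225 alternatives, of which 12 were chosen after seeing the data. Of these, 219 stayed within the interval over genes (or within 1.5 times, for motif counts), which is wide for 5 to 10 genes, so this says little about stability. Counting each isoform once lowered the median sense count by construction, to 115 for polymerase I, 123 for polymerase II, 58.5 for polymerase III and 177 for shared subunits, and the median whole-ORF count of shared subunits to 150. With ORFs of at most 1000 nt only, the median sense count was 1014 for polymerase I and 317 for polymerase III, and the median internal-start share was 1.98% for polymerase I, 5.21% for II, 13.95% for III and 2.58% for shared subunits. The PAC core fell to 0 of 7 polymerase II genes with the longer form CGATGAG and to 0 with the 250 nt before the start codon only, and to 3 of 10 polymerase III genes with the longer form. No paired analysis was possible because both samples stand in 1 pooled column, and for the same reason neither replicate could be left out. No UTR could be read for RPA190, RPA135, RPO21, RPO31 and RET1, which had 0 whole-ORF molecules. Those of RPC53, RPC82 and RPB2 rest on only 3, 4 and 4 such molecules.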
